A study of Arabidopsis thaliana with 20 samples.

Results

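NRT2.5 (AT1G12940) is a gene of the Arabidopsis thaliana NRT2 family, read on the array by 1 probe set, 261198_at, of 22746 that are not controls. Its probe set is 1 of 13513 that the array annotation lists with a single gene. It was chosen by its giant cell signal, which lay among the largest differences from control cells in these same samples. The comparison of giant with control cells is therefore given for NRT2.5 as a description, with no test. The comparison between amplification kits, averaged over both cell types, did not enter that choice and was tested. Kit comparisons within a cell type and the difference between the kits' giant cell differences were tested too. They share group means with the choice, so their p-values are not independent of it.

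Plants take up nitrate with transporters of 2 families. The NRT1/PTR family, now called NPF, holds low-affinity nitrate carriers along with carriers of peptides, hormones and glucosinolates. NRT2 proteins form the high-affinity system, and most of them act with a partner protein of the NRT3 (NAR2) family at the plasma membrane. NRT2.5 is known as a transporter of nitrogen-starved plants: its transcript builds up in the epidermis and cortex of the root hair zone and in the veins of leaves, and nitrate supply represses it.

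The array study compared giant cells, the enlarged feeding cells that the root-knot nematode Meloidogyne incognita induces, with control root cells. All plants were of the Columbia ecotype, were inoculated at an age of 3 weeks with 1000 juveniles, and were sampled 21 days later, so the control cells also came from infested roots, from stretches without nematodes. Cells were cut by laser capture, about 80 giant cells (5000000 square micrometres) or about 150 control cells (13000000 square micrometres) per sample. RNA was amplified either straight from lysed cells with a NuGEN kit called WT-Ovation One-Direct, or after RNA isolation with the same maker's WT-Ovation Pico kit. The 4 groups were giant cells with One-Direct, control cells with One-Direct, giant cells with Pico and control cells with Pico. Each had 3 biological samples, and 1 of the 3 was split over 3 technical arrays, which makes 20 arrays in all. Cell type goes with the number of cells captured, and kit with the isolation step, so neither pair can be told apart. The labels name no plant for any sample, so p-values measure the spread between these samples, and some of that may be technical. In such bulk samples a higher share of cells with the transcript and more transcript per cell cannot be told apart.

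Values are linear signals in array units, scaled by the authors to the same trimmed mean on every array, with array medians between 166.5 and 311.3. Sample 1 stood apart in both One-Direct groups. Among control One-Direct samples it correlated with samples 2 and 3 at 0.649 and 0.587 across probe sets, against 0.784 between samples 2 and 3, and among giant One-Direct samples at 0.77 and 0.724, against 0.823. Differences of NRT2.5 that use these samples are given without them as well. Pico samples of the same group correlated more closely, from 0.90 to 0.96, than any pair of One-Direct samples. Reported SEs and limma p-values rest on 1 spread per probe set shared by the 4 groups. Of 41 marker genes of root cell types and feeding sites, 3 could be matched to a probe set through the annotation used here, which names a single gene for part of the probe sets only. None of the 11 giant cell markers was matched, so the giant cell label was not checked against its markers.

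NRT2.5 had high signals in giant cells with both kits. With One-Direct, the 3 giant cell samples had signals of 1241, 1294 and 643, and the 3 control samples 47.0, 339 and 111. With Pico, giant cell samples had signals of 789, 249.8 and 535, and control samples 5.55, 9.58 and 44.0. Within each kit every giant cell sample lay above every control sample. Across kits the groups overlapped, since control One-Direct sample 2 was brighter than giant Pico sample 2.

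**Figure D1:**
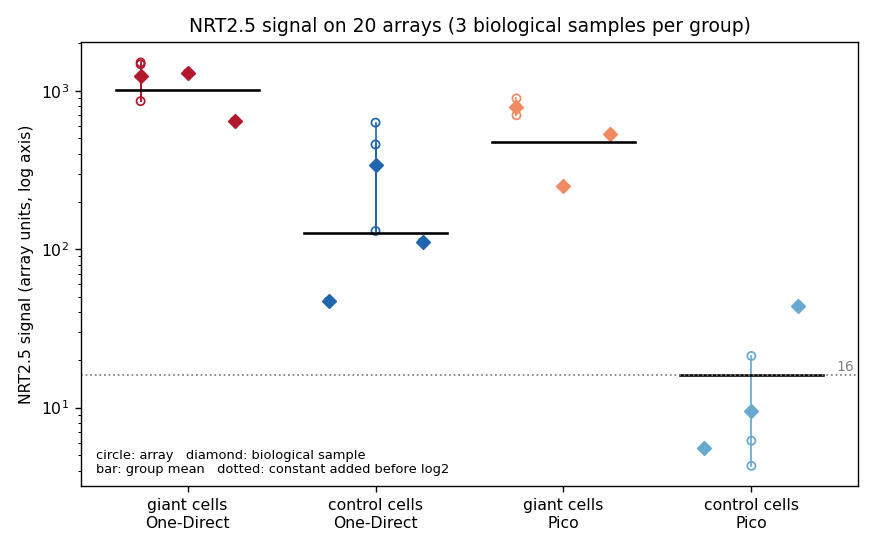
NRT2.5 signal (array units, log axis) in giant and control cells with each kit; circles are arrays, diamonds biological samples (technical arrays averaged as log2) and bars group means, and the dotted line marks 16, the constant added before log2. Giant cell means are 1012 with One-Direct and 474 with Pico, control means 126 and 16.1, and the arrays of control One-Direct sample 2 spread from 130.4 to 629.9.

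Levels were averaged as log2(signal + 16), in which 16 keeps values near zero from dominating and shrinks fold changes of dim genes. The mean was 10.01 ± 0.56 in giant cells and 7.15 ± 1.26 in control cells with One-Direct (SD, n = 3 each). With Pico it was 8.94 ± 0.81 in giant cells and 5.00 ± 0.79 in control cells (SD, n = 3 each). The order from high to low was thus giant One-Direct, giant Pico, control One-Direct and control Pico. The samples of giant Pico and control One-Direct overlapped, and control cells with One-Direct varied most.

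As a difference, giant cells exceeded control cells by 2.86 log2 units with One-Direct (SE 0.64, 7.25-fold) and by 3.93 with Pico (SE 0.64, 15.3-fold). Averaged over the kits the difference was 3.40 (SE 0.45, 10.5-fold). Of all probe sets, 14652 were bright enough to be analysed, with a signal above the array median in at least 3 of 12 samples. NRT2.5 was above it in all 6 giant cell samples and in 1 control sample, control One-Direct sample 2. Among the 14652 it had the 7th largest rise over both kits, the 9th with Pico and the 36th with One-Direct. The median of all these probe sets was itself 0.24 log2 units higher in giant cells, and relative to it the difference for NRT2.5 was 3.16.

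The size of the difference depended on how dim control values were treated. In control cells with Pico all 3 samples were dim and 2 of them lay below the constant of 16. No detection calls were used here, so whether the transcript was present in these samples is not known, and the Pico fold is a value on the scale with the constant added, not a bound. With a constant of 1 the Pico fold was 33.6, and with a constant of 64 it was 6.60. With One-Direct these folds were 8.30 and 5.39, so the change was smaller there. Single samples mattered in One-Direct: the fold was 11.5 without control sample 2 and 4.37 without sample 1 of both groups, which gave 8.17 over both kits. It was 4.45 when samples were weighted by how closely they followed their group. The sign was positive under every setting run.

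**Figure D2:**
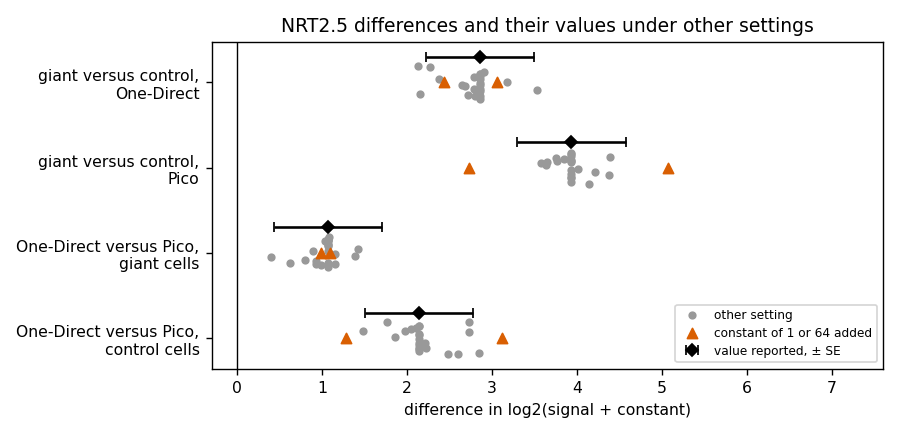
Differences of NRT2.5 in log2(signal + constant) for giant against control cells within each kit and for One-Direct against Pico within each cell type; black diamonds are the reported values with SE, triangles use a constant of 1 or 64 in place of 16, and grey points are the other settings. All points lie above 0, and the constant spreads the Pico comparison from 2.72 to 5.07 and the control cell comparison from 1.28 to 3.11.

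The place of NRT2.5 among all probe sets of its own array does not depend on any constant or scaling. On giant cell arrays with One-Direct it was brighter than 72.8% to 90.3% of probe sets, and on control arrays than 24.3% to 74.5%. With Pico the range was 56.7% to 81.8% on giant cell arrays and 4.78% to 24.0% on control arrays. Every giant cell array placed NRT2.5 in the brighter part of the array and every Pico control array among its dimmer ones. The 5 control arrays with One-Direct fell on both sides of the array median.

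**Figure D3:**
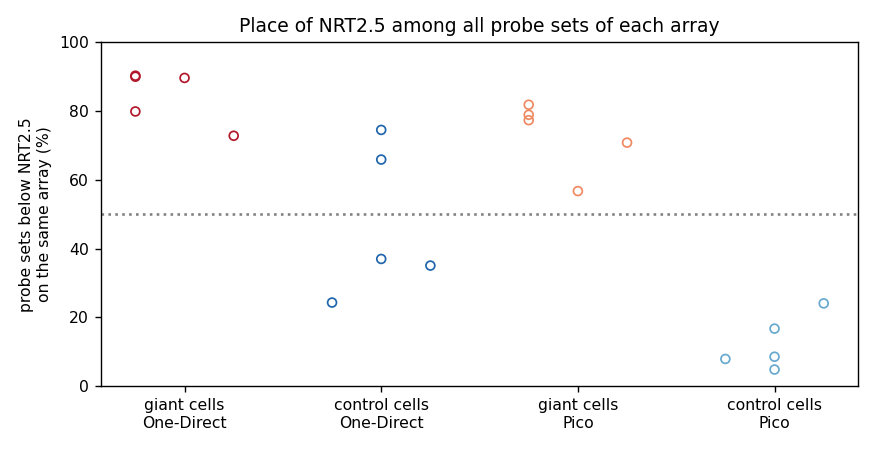
Share of the 22746 probe sets with a lower signal than NRT2.5 on the same array (percent), in giant and control cells with each kit; each circle is an array and the dotted line is the middle of the array. Giant cell arrays lie between 56.7% and 90.3%, Pico control arrays between 4.78% and 24.0%, and One-Direct control arrays between 24.3% and 74.5%.

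Technical arrays of a single sample show how well the gene was measured. The split giant One-Direct sample had signals of 1470.3, 861 and 1510.0 on its arrays, and the split control One-Direct sample 458, 130.4 and 629.9. The split giant Pico sample had 784, 700.2 and 896, and the split control Pico sample 21.2, 6.18 and 4.29. The brightest array was 1.75 times the dimmest in giant and 4.83 times in control cells with One-Direct, and 1.28 and 4.94 times with Pico. NRT2.5 was thus read more evenly in the split giant cell samples than in the split control samples. The brightest control One-Direct array, at 629.9, came close to the dimmest giant One-Direct array, at 643.

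On the log2 scale the SD over 3 technical arrays was 0.45 in giant and 1.13 in control cells with One-Direct, where the median over all analysed probe sets was 0.39 and 0.65. With Pico it was 0.17 in giant and 0.47 in control cells, where the median was 0.29 in both. NRT2.5 varied more than the median probe set in control cells with either kit and in giant cells with One-Direct. In giant cells with Pico it varied less. These SDs describe 1 split sample per group, were not set against probe sets of like signal and were not tested. Between the 3 biological samples, by first technical arrays, the SD of NRT2.5 was above the median in all 4 groups. In giant cells with Pico it was 0.81, against a median of 0.35, and this was not tested either.

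The kit comparison asks how far the level read for NRT2.5 depends on amplification. Over both cell types NRT2.5 was higher with One-Direct than with Pico by 1.60 log2 units (SE 0.45, 3.04-fold), with a mean of 8.58 against 6.97. The limma adjusted p was 0.014, and the 95% interval of the fold ran from 1.55 to 5.97. Among all 14652 probe sets 18.0% were called higher and 16.3% lower with One-Direct at an adjusted p below 0.05, so a call of this kind was common. An exact permutation of kit labels within each cell type gave a two-sided p of 0.015, where 0.005 is the smallest possible. Without sample 1 of both One-Direct groups the difference was 1.82 (limma adjusted p = 0.00658).

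In control cells the One-Direct signals of 47.0, 339 and 111 all exceeded the Pico signals of 5.55, 9.58 and 44.0. The difference was 2.14 log2 units (SE 0.64, 4.41-fold, limma adjusted p = 0.0294), in a comparison where 21.3% of probe sets were called. This call was lost without control One-Direct sample 2 (2.79-fold, adjusted p = 0.0941 by limma) and without control Pico sample 1 or 2 (adjusted p = 0.111 and 0.0938 by limma). Without control One-Direct sample 1 the fold was 6.62 (limma adjusted p = 0.00787). The call was also lost with a constant of 64, with quantile normalisation and with only control samples in the fit. The exact permutation p was 0.10, the smallest that 3 against 3 samples allow.

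In giant cells the signals of 1241, 1294 and 643 with One-Direct overlapped those of 789, 249.8 and 535 with Pico. The difference of 1.07 log2 units (SE 0.64, 2.1-fold) did not pass (limma adjusted p = 0.277), in a comparison where 21.2% of probe sets were called. Its 95% interval in log2 units ran from -0.31 to 2.44, which leaves room for folds up to 5.44. The exact permutation p was 0.20. Without sample 1 of both One-Direct groups the difference was 0.92 (limma adjusted p = 0.290).

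The giant cell difference was smaller with One-Direct than with Pico by 1.07 log2 units, and this difference between differences did not pass (SE 0.90, limma adjusted p = 0.782). The 95% interval ran from -3.02 to 0.87. The value was -1.80 with sample 1 of both One-Direct groups left out (limma adjusted p = 0.383). Across the array 0.0205% of probe sets, 3 of 14652, passed this comparison. These data therefore do not resolve whether the fold of NRT2.5 differs between the kits.

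An array measure of RNA ends moved with cell type and with kit. The log2 ratio of 3' to 5' signal of the GAPDH control probe sets was 2.27 ± 0.18 in giant and 3.46 ± 1.02 in control cells with One-Direct (SD, n = 3 each). With Pico it was 1.2 ± 0.16 in giant and 2.34 ± 0.20 in control cells (SD, n = 3 each). Within each kit every giant cell sample had a lower ratio than every control sample. The 3 control One-Direct samples had ratios of 4.63, 2.77 and 2.97, so sample 1 sets much of their SD. Within groups the ratio and the NRT2.5 signal had no common order. Among control One-Direct samples, the highest ratio (4.63) went with the lowest signal (47.0) and the lowest ratio (2.77) with the highest signal (339). In the other groups it ran the other way at one end: the giant One-Direct sample with the lowest ratio (2.08) had the lowest signal (643), the giant Pico sample with the highest ratio (1.38) had the highest signal (789), and the control Pico sample with the highest ratio (2.52) had the highest signal (44.0). The part of RNA quality in the NRT2.5 differences was not tested.

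Markers of root cell types could be read for the root hair and the cortex lists alone. EXPA7 and EXPA18, expansins of root hair cells, were 2 of 9 root hair and epidermis genes, and AT1G62500 was the cortex gene. Their summed signal ran from 138 to 739 in giant and from 95.3 to 315 in control cells with One-Direct, and from 18.3 to 47.8 in giant and from 17.6 to 217 in control cells with Pico. Giant and control cells overlapped within each kit, and all 3 markers were too dim to be analysed. The lowest signal of a single marker was 1.26, in control Pico sample 3. Between kits the summed signal of giant cells did not overlap, with every One-Direct sample above every Pico sample, while that of control cells did. AT1G62500 made up most of this, at 3.21 log2 units higher with One-Direct in giant cells and 0.78 in control cells. The part of these markers in the kit difference of NRT2.5 was not tested. The make-up of the samples from epidermis, cortex or other cell types was otherwise not tested.

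Little of the pathway around NRT2.5 could be matched to probe sets, since 13513 of 22746 are listed with a single gene in the annotation used here. Of 76 other genes of nitrate transport, ammonium transport, nitrogen assimilation and nitrogen signalling, 9 were matched. None of the 8 other NRT2 and NRT3 genes was among them, nor any nitrate reductase, nitrite reductase, glutamine synthetase or ammonium transporter, and these are not analysed here. Of the 9, 5 were bright enough to be analysed. Between giant and control cells 1 of these was called higher and 0 lower by limma, where 10.5% of all probe sets were called higher and 9.04% lower. At an unadjusted p below 0.05, 1 was higher and 2 were lower. Nothing is read from these counts of 5 genes, since the filter lets in genes that are bright in 1 cell type. Over all 9 genes, dim ones included, the median difference was -0.45 log2 units, beside 0.24 over all probe sets.

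The gene called higher was NPF6.4 (AT3G21670), a member of the NRT1/PTR family. Its signal was 294, 655 and 418 in giant and 123, 25.1 and 171 in control cells with One-Direct. With Pico it was 302, 359 and 328 in giant and 10.7, 34.6 and 146 in control cells. Giant cell samples lay above control samples within each kit. The difference was 2.32 log2 units over both kits (SE 0.46, 5.01-fold, limma adjusted p = 0.00451), with 2.133 in One-Direct and 2.52 in Pico. NPF6.4 lay above the array median in the 6 giant cell samples and in 0 control samples, so it was analysed because of its giant cell signal and its place among the genes called higher is a description. With no filter, so that every probe set entered the fit, the limma adjusted p was 0.00586. Without sample 1 of both One-Direct groups the difference was 2.57 (limma adjusted p = 0.00471).

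Of 24 nitrogen signalling genes on the list, 4 were matched to a probe set. These 4 were not called between giant and control cells over both kits. AT3G25790 differed by -1.39 log2 units (SE 0.47, limma adjusted p = 0.0552) and AT1G25550 by -0.88 (SE 0.30, limma adjusted p = 0.0548), and each was called lower in 8 of its other settings. Within kits, AT3G25790 differed by -0.23 with One-Direct (limma adjusted p = 0.864) and by -2.55 with Pico (limma adjusted p = 0.0300). It was thus called lower with Pico alone. Its difference between the kits' giant cell differences, 2.32, did not pass (limma adjusted p = 0.464). The other signalling loci were not called within either kit. AT3G25790 was analysed because of its control cell signal, above the array median in 3 control samples and 1 giant cell sample. AT1G68670 differed by -0.45 and AT3G60320 by 0.45 (limma adjusted p = 0.362 and 0.208). Over both cell types, 0 of the 5 analysed genes were called higher with One-Direct than with Pico by limma. At an unadjusted p below 0.05 it was also 0. Of the 5, 2 were called lower, where 18.0% of all probe sets were called higher and 16.3% lower. These were AT1G68670 (-1.11, limma adjusted p = 0.0206) and AT3G60320 (-0.68, limma adjusted p = 0.0452), and they lost the call in 3 and 14 of 24 other settings. The kit difference of NRT2.5, at 1.60, had the opposite sign to these. Of the analysed genes not called between kits over both cell types, AT3G25790 (0.98) and NPF6.4 (0.57) shared its sign and AT1G25550 (-0.33) did not. For AT3G25790 this value averaged 2.15 in giant cells (limma adjusted p = 0.0357) with -0.18 in control cells. NRT2.5 had its larger kit difference in control cells.

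To widen the view, 8 further NPF genes that RefSeq names and the array annotation lists were added after the names on the array had been seen. With the 5 on the first list this gives 13 NPF genes, 4 of them bright enough to be analysed. In giant cells over both kits NPF6.4 was called higher and 3 genes were called lower, where 10.5% of all probe sets were called higher and 9.04% lower. As the filter lets in genes that are bright in 1 cell type, nothing is read from this count. GTR2 (AT5G62680, NPF2.11), a glucosinolate transporter, had signals of 264, 112 and 61.1 in giant and 1039, 863 and 1751 in control cells with One-Direct. With Pico its signals were 284, 340.3 and 119 in giant and 1483, 1229 and 2092 in control cells. Every giant cell sample lay below every control sample, with a difference of -2.88 log2 units (SE 0.37, 7.38-fold lower, limma adjusted p = 0.000292) that was called under all 24 other settings.

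GTR1 (AT3G47960, NPF2.10), the close relative of GTR2, differed by -1.19 log2 units (SE 0.38, limma adjusted p = 0.0441), with -2.28 in One-Direct and -0.10 in Pico. Its One-Direct signals were 731, 631 and 181 in giant and 3821, 1812 and 1530.2 in control cells. NPF4.3 (AT1G59740) differed by -1.43 (SE 0.46, limma adjusted p = 0.0444). It was analysed because of its control cell signal, above the array median in 5 control and 2 giant cell samples. Both calls lay close to the threshold and were lost in 13 and 12 of 24 other settings, among them the fit with no filter (limma adjusted p = 0.0621 for GTR1 and 0.0585 for NPF4.3). With sample 1 of both One-Direct groups left out the difference was -1.17 for GTR1 (limma adjusted p = 0.0328) and -1.96 for NPF4.3 (limma adjusted p = 0.00515). The other 9 NPF genes were too dim to be analysed, with group mean signals between 6.37 and 129. Over all 13 NPF genes the median difference was -0.17 log2 units, beside 0.24 over all probe sets, and 5 of 13 were above 0.

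**Figure D4:**
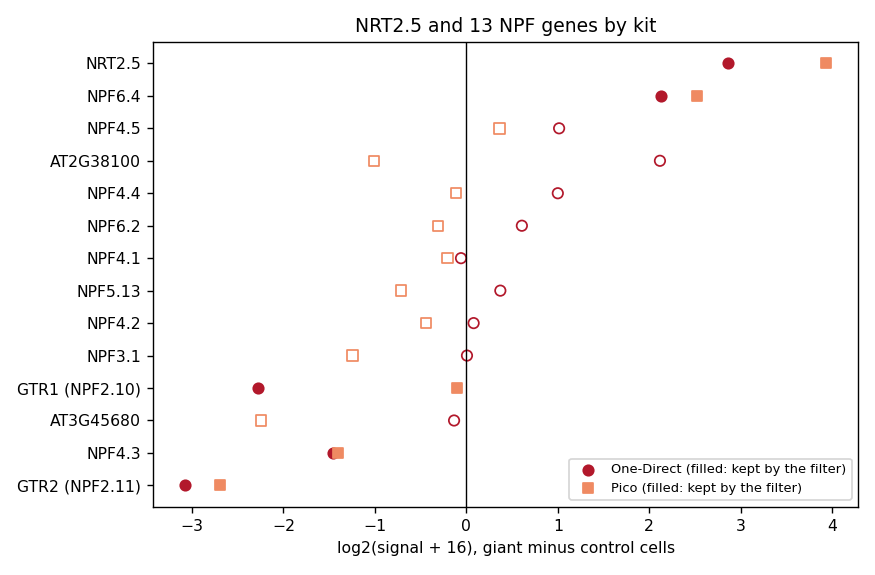
Difference in log2(signal + 16), giant minus control cells, of NRT2.5 and 13 NPF genes with One-Direct (circles) and Pico (squares); filled symbols were bright enough to be analysed. NRT2.5 lies at 2.86 and 3.93 and NPF6.4 at 2.133 and 2.52, GTR2 at -3.07 and -2.70, and most dim genes scatter around 0.

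NRT2.5 lies on chromosome 1, and its nearest neighbours with a probe set listed for them alone are AT1G12930 on one side and AT1G12960 on the other, each with 1 gene in between. AT1G12930 had mean signals of 178 in giant and 72.4 in control cells with One-Direct, and of 152 in giant and 176 in control cells with Pico. AT1G12960 had 36.4 in giant and 63.2 in control cells with One-Direct, and 30.3 in giant and 39.6 in control cells with Pico. Neither was bright enough to be analysed. Their differences over both kits were 0.47 and -0.43 log2 units, beside 3.40 for NRT2.5.

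Genes with a similar profile were sought among 8080 other analysed genes, by the root mean square difference from NRT2.5 in log2 signal centred on each gene's mean over the 12 biological samples. A gene with the same signal in every sample would differ from NRT2.5 by 2.03 on this measure, and the median gene differed by 2.096. The 5 closest were AT1G20120 (0.90), AT1G30660 (0.94), ASPGB1 (AT3G16150, 0.999), AT4G00390 (1.01) and AT4G38380 (1.02). No test applies to them, since their likeness chose them.

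ASPGB1, an asparaginase that releases ammonium from asparagine, had signals of 1145, 1166 and 1089.9 in giant and 277, 318 and 547 in control cells with One-Direct. With Pico it had 1662, 511 and 700.0 in giant and 130.0, 96.2 and 54.6 in control cells. It was lowest in control cells with Pico, as were NRT2.5 and the other genes chosen by likeness to it. AT1G20120 had 329, 211 and 289 in giant and 7.81, 36.8 and 22.9 in control cells with One-Direct, and 349, 93.6 and 242 in giant and 18.2, 7.23 and 1.33 in control cells with Pico. Differences between giant and control cells over both kits ran from 2.00 log2 units for AT4G38380 to 3.08 for AT1G20120. That of NRT2.5, which was chosen for a large difference, was 3.40. Differences between One-Direct and Pico ran from 0.51 for AT1G20120 to 1.88 for AT4G00390, against 1.60 for NRT2.5.

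**Figure D5:**
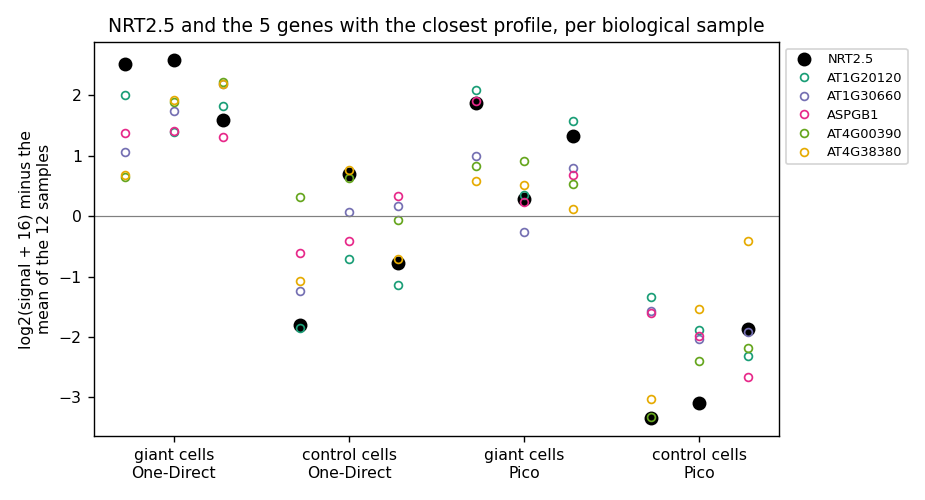
Log2(signal + 16) minus the mean of the 12 biological samples for NRT2.5 (filled) and the 5 genes with the closest profile (open), samples 1 to 3 from left to right in giant and control cells with each kit. NRT2.5 and its 5 neighbours in profile are highest in giant cells with One-Direct by group mean and lowest in control cells with Pico.

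A closeness within groups was sought too, with the group means removed. NRT2.5 then had a root mean square of 0.73 log2 units around its group means. The closest genes were PKDM7D (AT1G08620, 0.30), AT3G17890 (0.34), AT4G35985 (0.35), AT5G09270 (0.35) and AT5G45760 (0.35), against a median gene at 0.84. Between giant and control cells these genes differed by values from -2.71 log2 units for AT4G35985 to 1.09 for PKDM7D. None of the 5 genes closest in the whole profile was among the 5 closest within groups.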

How the data were processed

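The authors deposited 1 signal intensity (linear scale) per probe set for each of 20 arrays. Affymetrix Expression Console and MAS5 are named in the submitters' processing notes, without versions. After trimming 2% at either end, every array averaged between 500.02 and 500.04, and arrays were set to their common mean. The 64 control probe sets were kept out of the tests. Technical arrays were averaged as log2(signal + 16) and counted as 1 sample.

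Probe sets above the array median in at least 3 of 12 samples were analysed (14652 of 22746). NRT2.5 was above it in 7. Means of the 4 groups were fitted with limma 3.58.1 in R 4.3.3 (lmFit, eBayes) to all 12 samples, with two-sided tests, Benjamini-Hochberg adjustment over all analysed probe sets and a threshold of 0.05; the fit was tested on simulated data. Genes were named through identifiers matched to a RefSeq table of TAIR10.1, from probe sets listed with 1 gene, and where several were listed for a gene, the one with the highest mean was used. The array's own coordinates are not used here. The number of samples limits the precision.

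NRT2.5 and the lists were chosen with earlier results of these data known. Named genes are NRT2.5, the NPF genes, called genes and signalling loci of the nitrogen list, chromosomal neighbours and the 5 closest profiles of each kind. Places on the lists of AT3G60320, AT3G25790, AT1G68670, AT1G25550, AT3G45680, AT2G38100 and AT1G62500 come from background knowledge, as RefSeq gives no family name. Alternatives changed the constant, filter, scaling, averaging, weights, block and samples.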

Additional observations from a re-analysis of the deposited data

How the results depend on the processing

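The difference of NRT2.5 between giant and control cells kept its sign under all settings run, from 2.58 to 4.06 log2 units over both kits (24 settings), between 2.128 and 3.52 with One-Direct and between 2.72 and 5.07 with Pico (25 settings each). The 2 ends in Pico came from constants of 64 and 1. The kit difference over both cell types stayed called in all 25 settings (1.14 to 2.105). Of these the exact permutation test gave an unadjusted p of 0.015, and the limma adjusted p of the others ran from 0.00274 to 0.0402. In giant cells the kit difference was not called in any of 26 (0.40 to 1.43, the lowest with median centring). The difference between the kits' giant cell differences was not called in any of 24 (-2.06 to -0.29). In control cells the call of the kit difference was lost in 7 of 26: with a constant of 64 (1.28), quantile normalisation (1.77), only the compared samples (2.14), the exact permutation test (2.14) and without control One-Direct sample 2 or control Pico sample 1 or 2. With 3 against 3 samples that permutation p cannot fall below 0.10. Its outcome was thus fixed in advance, here and among the settings for giant cells. Leaving out single samples gave 1.48 to 2.73 in control cells. The cause was not tested.

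Counts on the nitrogen list moved by a few genes. Called lower in giant cells, 0 in the fit reported, were 1 with a constant of 1 or 64, no filter, the stricter filter (6 of 12 samples) or the replicate block, 2 with median centring, all 20 arrays or sample 1 of both One-Direct groups left out, 3 with sample weights and 0 to 2 without single samples. Called higher with One-Direct, also 0, was 1 with sample weights or with sample 1 of both One-Direct groups left out, and 0 to 1 without single samples. Called lower with One-Direct, 2, was 1 with no filter, the first technical array, the replicate block or those samples left out, and 0 to 2 without single samples.

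Samples of different groups share replicate numbers, but same-numbered samples did not deviate together: their 18 correlations ran from -0.06 to 0.14, and 15 of 36 comparisons favoured the own number. With the replicate number as a block the kit difference of NRT2.5 was 1.60 (limma adjusted p = 0.0239), and calls over all probe sets numbered 2748 in place of 2868 between cell types and 4912 in place of 5027 between kits. Averaging technical arrays on the linear scale, added after seeing the data, gave 3.35 for giant against control cells. The low signals of the Pico control samples limit what can be said of the fold there.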
